A study of Homo sapiens with 16 samples.

Results

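RGCC, the regulator of cell cycle, is a small intracellular protein encoded on chromosome 13 (GRCh38.p14, chr13:41457550-41470871, gene ID 28984). It was followed in OVCAR3, an established human ovarian carcinoma line, after the hormonal form of vitamin D, 1,25(OH)2D3. Its members are all probe sets that the platform annotation gives to RGCC alone. There was 1 such probe set, 218723_s_at, among 22283 on the U133A arrays, and 0 of 12626 probe sets of the U95 arrays could be assigned to RGCC with the annotation used here. The gene was chosen by its measured fall at 8 h, the largest among 7178 genes, so its levels against vehicle are given as a description without a test. Only the differences among the treated groups were tested.

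RGCC was first known as a gene switched on by complement attack on cells. Its protein binds the mitotic kinase CDK1 and raises its activity, and it has been linked both to progression through the cell cycle and to growth arrest, depending on the cell. It is abundant in endothelial cells, and it has been reported to associate with the mitotic kinase PLK1, the survival kinase AKT1 and the TGF-beta effector SMAD3, and to respond to hypoxia through HIF1A. Vitamin D acts on genes through its nuclear receptor, VDR, which pairs with a retinoid X receptor and binds repeated short sites in DNA.

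The 12 U133A arrays held 4 groups of 3 replicates, from 3 independent experiments. The vehicle group received ethanol, and the other groups received 1,25(OH)2D3 for 8, 24 or 72 h at a dose the labels give as 0.1 pM, a unit that the arrays cannot check. Hormone was added at staggered times and all cells were harvested together with equal ethanol, so the vehicle group stands for time 0. Per the submitters, the hormone response of the cells used was checked on GADD45 by Northern blot. No cells with a changed genotype were used, and all samples are of 1 cell line. Over the 12 arrays the median signal lay between 168 and 196, and any pair of arrays correlated at 0.958 to 0.976 on log2 values. Of 10 epithelial and ovarian carcinoma markers 10 lay above the filter on low genes, against 2 of 7 fibroblast, 1 of 5 leukocyte and 0 of 6 endothelial markers. The summed signal of the endothelial markers lay between 215 and 409 in vehicle and between 191 and 372 over the treated groups. That of the leukocyte markers lay between 548 and 647 in vehicle and between 473 and 532 at 24 h. At 8 h it lay between 530 and 691 and at 72 h between 475 and 628, which overlap vehicle. The part of these markers in the results was not tested.

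The bases just before the RGCC start are shown because the hormone acts through a receptor that binds DNA. They span chr13:41457300-41457549 on the plus strand of GRCh38.p14 and are credited to RefSeq. Capitals mark matches to GGGCGG, the core letters bound by SP1, on either strand.
RGCC upstream: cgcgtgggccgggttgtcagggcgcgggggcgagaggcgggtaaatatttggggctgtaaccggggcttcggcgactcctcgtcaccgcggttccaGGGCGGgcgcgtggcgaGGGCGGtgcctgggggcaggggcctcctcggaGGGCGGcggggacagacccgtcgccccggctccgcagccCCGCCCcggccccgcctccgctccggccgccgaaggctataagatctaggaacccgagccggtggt

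The search covered 300 bases, 250 before the start and 50 after it, on both strands. GGGCGG matched 5 times, at 154, 137, 105 and 66 bases before the start and at base 2 after it, and 45.0% of 35116 promoters of that length hold it. None of the VDR half-sites AGGTCA or GGGTCA or GGTTCA or AGTTCA was found, singly (38.6% of promoters hold at least 1) or as a direct repeat with 3 bases between (0.074%). The hypoxia core GCGTG matched 2 times, at 249 and 146 bases before the start (36.5% of promoters). Other letters searched were not found. These were TATAAA, a form of the TATA box (held by 11.5% of promoters), TGAGTCA for AP-1 (4.95%) and TTTGAA, the CHR element of mitotic genes (15.2%). Also absent were TGACGTCA for CREB (1.85%), GTCTAGAC (0.202%) and CAGACA (16.9%) for SMAD, and the hypoxia core ACGTG (21.4%). Only exact matches counted, and the printed bases hold TATAAG and CAGACC, each 1 letter off TATAAA or CAGACA. The window was rich in G and C, at 76.7% against a median of 58.7%, and held 44 CG steps against a median of 14. These are matches of letters, and no binding was measured.

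RGCC was high in vehicle and low at each time after hormone. The MAS5 signal, a value per probe set on a linear scale, was 1438, 1179 and 1446 in the vehicle replicates. It was 304, 242 and 303 at 8 h, 149, 119.8 and 248 at 24 h, and 266, 233 and 267 at 72 h. All 9 treated arrays lay below all 3 vehicle arrays, while the treated groups overlapped one another. The group means were 1355 ± 152 in vehicle, 283 ± 35.4 at 8 h, 172 ± 67.0 at 24 h and 255 ± 19.6 at 72 h (mean ± SD, n = 3). The signal thus stood at 20.9%, 12.7% and 18.8% of vehicle after 8, 24 and 72 h. At 24 h replicates 1 and 2 lay below the median signal of their arrays (181 and 188). The 24 h percentage therefore rests on low signals of 1 probe set. In cultures measured in bulk, fewer cells with RGCC mRNA and less of it per cell cannot be told apart.

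**Figure D1:**
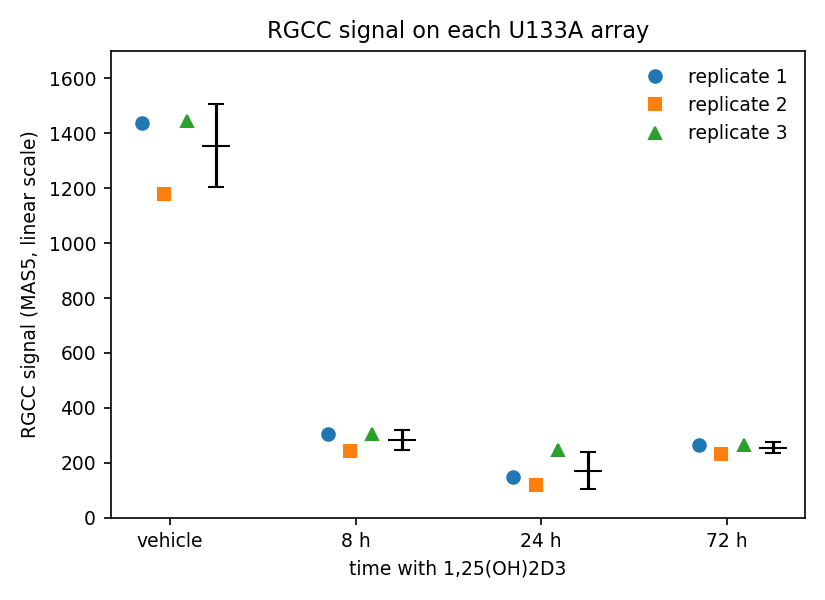
RGCC signal on a linear axis for each of the 12 U133A arrays, by group and replicate number, with the group mean and SD beside the points. The vehicle arrays lie between 1179 and 1446 and the treated arrays between 119.8 and 304.

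On the log2 scale, with 15.8 added to each signal, RGCC changed by -2.20 at 8 h, -2.92 at 24 h and -2.33 at 72 h. The 95% intervals were -2.62 to -1.77, -3.34 to -2.49 and -2.76 to -1.91. They make no allowance for the choice of RGCC as the largest fall, so they are a description and no test. These comparisons share the vehicle arrays and the same SE (0.20), which comes from a spread pooled over the groups. By group the log2 SD was 0.17 in vehicle, 0.18 at 8 h, 0.49 at 24 h and 0.11 at 72 h. At 8 h, 4 of 7178 genes were called lower (0.0557%; 15 genes with the replicate number as a block) and 51 higher (0.711%) at an adjusted p under 0.05, with limma. The 4 include RGCC, for which this is no test, since the choice used it. The next largest falls were those of PIGV, a mannosyltransferase of the GPI anchor (-1.27), which was not called (adjusted p = 0.25), and of CCN2, a matrix-associated growth factor (-1.23, adjusted p = 0.10; 0.019 with the replicate block, 0.041 and 0.020 without 24 h replicate 1 or 3). Besides RGCC the count holds LMCD1 (-0.73, adjusted p = 0.0056), the transcription factor IRF8 (-1.07, adjusted p = 0.011) and ADAMTS1, a secreted protease (-0.85, adjusted p = 0.039). The call of IRF8 was lost without vehicle replicate 1 or 3 or 8 h replicate 2 (adjusted p up to 0.089). That of ADAMTS1 was lost without any vehicle or 8 h array or 72 h replicate 1 (up to 0.23) and without the filter (0.11).

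At 24 h only the chemokine CCL20 (-4.04) had a larger fall than RGCC, and the chemokine CXCL2 (-1.89) came next. The calls were 1.62% of genes lower (116 genes, and 64 without vehicle replicate 1) and 2.45% higher. At 72 h, CCL20 (-3.66) and FAM107A (-2.40), an actin-associated protein, had larger falls, with 2.98% of genes called lower (214, and 117 without vehicle replicate 1) and 3.86% higher. Counting rises as well as falls, 2, 5 and 11 genes changed more than RGCC at 8, 24 and 72 h. With the pseudocount raised 4-fold the 24 h change was -2.62, and RGCC ranked 3 among the falls. Over the alternative settings RGCC stayed at rank 1 at 8 h and ranked as low as 3 at 24 h and 5 at 72 h.

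**Figure D2:**
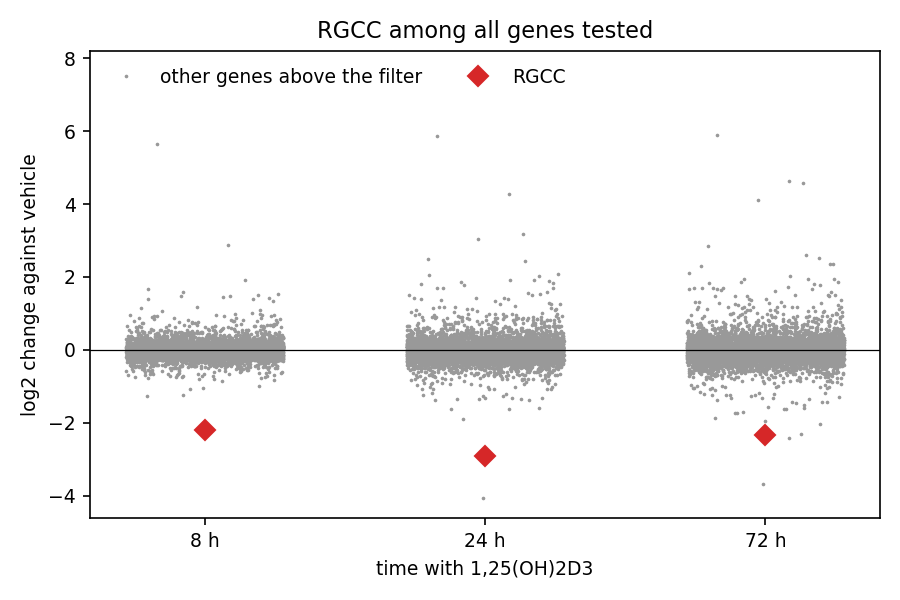
Log2 change against vehicle at 8, 24 and 72 h for the 7178 genes above the filter (grey points, spread sideways at random) and RGCC (red diamonds). RGCC lies at -2.20, -2.92 and -2.33 and is the lowest point at 8 h.

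The log2 differences among the treated groups did not use the vehicle means. Their limma SE, intervals and adjusted p did use the vehicle arrays, through the spread pooled over the groups. The vehicle and 8 h arrays had entered the choice of the gene, so these tests are not fully independent of that choice. From 8 to 24 h the log2 signal changed by -0.72 (SE 0.20, 95% interval -1.15 to -0.30), a further 1.65-fold lower signal. It did not pass (adjusted p = 0.17 over 7178 genes; 0.279% of genes were called lower and 0.362% higher). The result turned on the pairing and on 1 array. With the replicate number as a block it passed (adjusted p = 0.045, while the genes called in either direction went from 46 to 90), and without 24 h replicate 3 the change was -0.99 (adjusted p = 0.014). That array, with a signal of 248, lay 0.55 above its group mean on the log2 scale.

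From 24 to 72 h the log2 signal changed by 0.58 (SE 0.20, 95% interval 0.16 to 1.01) and did not pass (adjusted p = 0.29; 0.0836% of genes, 6, were called higher and 0.0697%, 5, lower; 5 and 1 with quantile normalization). With the block the adjusted p was 0.12 and the genes called went from 11 to 25. Without 24 h replicate 3 the change was 0.86 (adjusted p = 0.056). At 72 h the signal differed from that at 8 h by -0.14 (95% interval -0.56 to 0.29, adjusted p = 0.84), an interval that leaves room for a 1.22-fold higher or a 0.677-fold signal (1.38% of genes were called higher and 1.14% lower). Exact two-sided permutation tests of these 3 differences, made without the pairing, gave p = 0.20, 0.20 and 0.30 (0.30 each when adjusted over the 3). With 3 arrays against 3 they cannot go below 0.10. In order of level, vehicle stood first, then 8 h, 72 h and 24 h, and no neighbouring pair of the treated groups passed in the fit without the block.

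**Figure D3:**
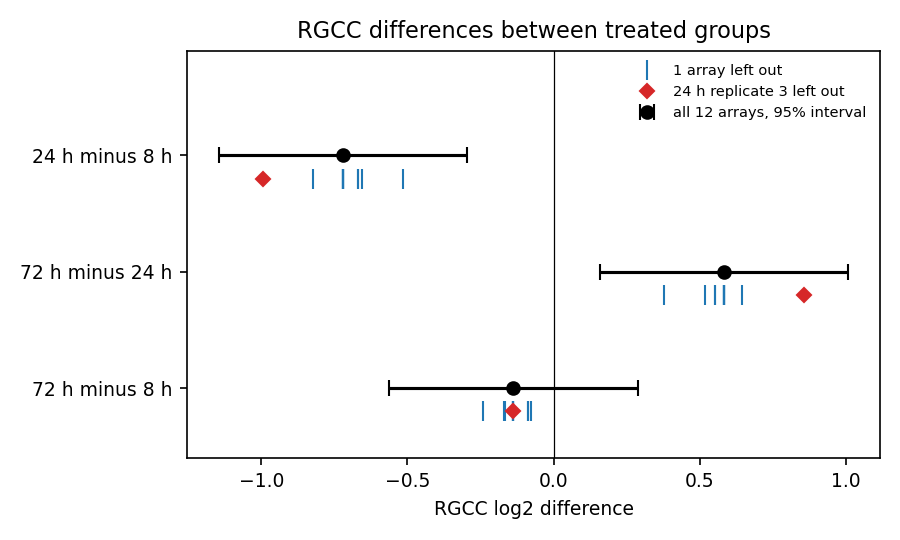
RGCC log2 differences between treated groups with 95% intervals from all 12 arrays (black), and the same differences with each array left out (blue) or with 24 h replicate 3 left out (red). The differences from 24 h move from -0.72 to -0.99 and from 0.58 to 0.86 without that array.

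In each group the lowest RGCC signal was that of replicate 2. It lay below its group mean by 0.19 in vehicle, 0.20 at 8 h, 0.41 at 24 h and 0.12 at 72 h on the log2 scale. Set against the vehicle array of the same number, RGCC changed at 8 h by -2.19, -2.21 and -2.20 in replicates 1, 2 and 3. At 24 h it changed by -3.14, -3.14 and -2.47, and at 72 h by -2.37, -2.27 and -2.37. The 3 differences at 8 h were nearly equal, while replicate 3 stood apart at 24 h. Leaving out single arrays kept the 8 h change between -2.29 and -2.09, the 24 h change between -3.19 and -2.71 and the 72 h change between -2.43 and -2.27. All these changes use the vehicle arrays, which had entered the choice of the gene, so they are a description and no test.

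None of the measured genes beside RGCC on chromosome 13 was called. Of the 5 protein-coding genes on each side in RefSeq order, 7 of 10 had a probe set of their own and 5 lay above the filter. These were WBP4, a splicing protein, NAA16, an auxiliary subunit of an N-terminal acetyltransferase, VWA8, the lipid kinase DGKH and AKAP11, which anchors protein kinase A. In the 3 comparisons with vehicle limma called 0 of 5 (lowest adjusted p = 0.39, and 0 at an unadjusted p under 0.05). Over all genes 0.711%, 2.45% and 3.86% were called higher and 0.0557%, 1.62% and 2.98% lower at 8, 24 and 72 h. At such shares 0 calls among 5 genes tell little about the neighbours. Their log2 changes lay between -0.25 and 0.33. NAA16, the nearest before RGCC, had signals of 289 in vehicle and 265, 264 and 239 at 8, 24 and 72 h. VWA8, the nearest after it, had 565 in vehicle and 547, 509 and 535.

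**Figure D4:**
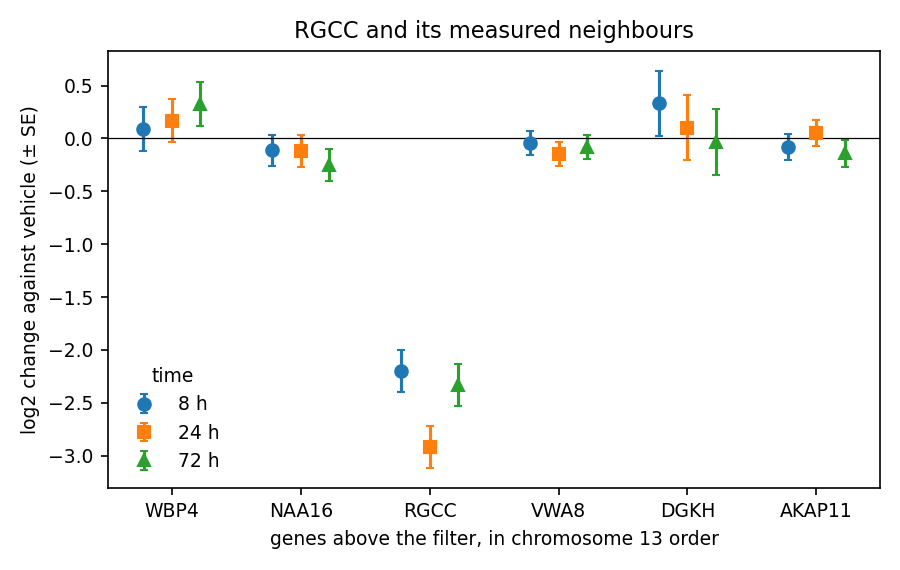
Log2 change against vehicle (± SE) at 8, 24 and 72 h for RGCC and its neighbours above the filter, in chromosome order without distances. The neighbours lie between -0.25 and 0.33, and RGCC between -2.92 and -2.20.

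No change in mRNA was called for CDK1, the kinase that RGCC binds. CDK1 had a signal of 4788 ± 472 in vehicle and 4526 ± 681, 4215 ± 491 and 4239 ± 376 at 8, 24 and 72 h (mean ± SD, n = 3), with log2 changes of -0.09, -0.19 and -0.17 (adjusted p = 1.00, 0.54 and 0.46). CCNB1, the cyclin that CDK1 needs at mitosis, changed by -0.09, -0.21 and -0.05 (adjusted p = 1.00, 0.32 and 0.85). PLK1 went from 621 ± 50.6 to 405 ± 68.6 at 24 h, a log2 change of -0.61 that did not pass (adjusted p = 0.052; 0.0090 with the replicate block, 0.039 with array weights, 0.042 without 24 h replicate 1, 0.030 and 0.031 without 72 h replicate 1 or 2), and stood at 576 ± 129 at 72 h. AKT1, SMAD3 and HIF1A did not pass at any time (lowest adjusted p = 0.61, 0.36 and 0.86).

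Among 21 tested genes that control CDK1, 2 rose and 0 fell at 8 h, and 2 rose and 1 fell at 24 h and again at 72 h. The median log2 changes of this list were -0.05, -0.17 and -0.06, against -0.0040, -0.016 and -0.015 over all genes. Over all genes 0.711%, 2.45% and 3.86% were called higher and 0.0557%, 1.62% and 2.98% lower at 8, 24 and 72 h. The members that rose were GADD45A (1.49, 1.91 and 2.02) and GADD45B (0.83, 0.92 and 0.78), growth arrest proteins that can inhibit the CDK1 kinase. The study itself selected GADD45A on arrays of these cells, so its rise is not independent evidence. The member that fell was CDC25B, a phosphatase that activates CDK1, from 1993 to 1219 at 24 h (-0.71, adjusted p = 0.0018) and 1382 at 72 h (-0.54, adjusted p = 0.010). At 8 h GADD45B was no longer called once any vehicle array, the 8 h array 1 or 2 or the 24 h array 1 was left out (adjusted p up to 0.22), nor without the filter (0.10) or with the mean of its probe sets (0.089). At 72 h the same held for vehicle array 2 (adjusted p = 0.057).

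In TGF-beta and SMAD signalling, 0 of 18 tested genes were called by limma at 8 h (4 at an unadjusted p under 0.05), 1 fell at 24 h, and 2 rose and 3 fell at 72 h. At 8, 24 and 72 h, 0.711%, 2.45% and 3.86% of all genes were called higher and 0.0557%, 1.62% and 2.98% lower. The medians of the list were -0.06, -0.08 and -0.10, against -0.0040, -0.016 and -0.015 over all genes. CCN2, named above for its fall at 8 h, belongs to this list and was called at 8 h with the replicate block (adjusted p = 0.019). Its signal was 658 in vehicle and 272, 390 and 751 at 8, 24 and 72 h, so the lower level did not last to 72 h. LTBP1, which binds latent TGF-beta, fell from a signal of 939 to 379 at 24 h (-1.26, adjusted p = 7.6e-05) and 296 at 72 h (-1.61, adjusted p = 3.7e-06). The receptor TGFBR2 fell by 0.84 (adjusted p = 2.8e-04) and SMURF2, a ubiquitin ligase of the pathway, by 0.52 (adjusted p = 0.015) at 72 h. The ligand TGFB1 rose by 0.75 at 72 h (adjusted p = 0.033), and ID1, a target of the related BMP pathway, by 0.37 (adjusted p = 0.0496). At 72 h SMURF2 was not called when vehicle array 1 or 3 or the 72 h array 1 was left out (adjusted p up to 0.072). The same held for TGFB1 with vehicle array 2 or 3 or any of the 72 h arrays (up to 0.14), and without the filter (0.075). ID1 kept its call in 5 of 21 settings (adjusted p up to 0.225 over left-out arrays). TGFB1 passed at 24 h without vehicle replicate 1 or 24 h replicate 2 (adjusted p = 0.046 and 0.028) and with the replicate block (0.037) or array weights (0.021), and TGFBR2 passed at 24 h without 24 h replicate 2 (0.014) or with array weights (0.018).

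The complement genes had 7 tested members, and limma called 0 at any time (0, 1 and 4 had an unadjusted p under 0.05 at 8, 24 and 72 h). Their medians were -0.04, -0.32 and -0.33, against -0.0040, -0.016 and -0.015 over all genes. Of all genes 0.711%, 2.45% and 3.86% were called higher at 8, 24 and 72 h, and 0.0557%, 1.62% and 2.98% lower. The 7 members were all negative at 72 h, without a call. Of 10 tested genes of AKT and FOXO signalling limma called 0 (0, 1 and 2 at an unadjusted p under 0.05), with medians of -0.03, 0.07 and -0.05. In the hypoxia and VEGF list 1 of 7 rose at 24 h and at 72 h, where 2.45% and 3.86% of all genes were called higher, and 0 fell. This was VEGFA, the angiogenic factor (0.58, adjusted p = 0.0094, and 0.67, adjusted p = 0.0023). It was not called at 24 h when vehicle array 3 or the 24 h array 1 was left out (adjusted p = 0.053 for each), or with the mean of its 4 probe sets (0.058).

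The genes whose pattern was most like that of RGCC were ranked by Pearson's r over the 12 arrays, which are 3 vehicle and 9 treated arrays that differ in RGCC, so r mostly describes that gap. The 5 highest were OVOL2, an epithelial zinc finger factor (0.92), EXT1, which builds heparan sulfate (0.92), the matrix protein THBS1 (0.89), RCAN2, a regulator of calcineurin (0.89), and NDUFS7, a subunit of respiratory complex I (0.88). All changed less than RGCC at each time. Their log2 changes at 24 h were -0.49, -0.69, -0.46, -1.02 and -0.51, given without a test because the ranking used the same arrays. After the group means were subtracted, RCAN2 kept r = 0.86 and EXT1 0.45, and the others lay between -0.25 and 0.039. This leaves in any difference between replicates in how far they responded. The largest RGCC deviations were those of 24 h replicates 2 and 3 (-0.41 and 0.55), so these r lean on the 24 h arrays. RCAN2 went from a signal of 937 ± 124 in vehicle to 701 ± 43.0, 458 ± 99.99 and 502 ± 75.8 at 8, 24 and 72 h.

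The 5 most opposite were DUSP10, a phosphatase of stress kinases (r = -0.96), the transcription factor WT1 (-0.96), MCUR1, a regulator of mitochondrial calcium uptake (-0.95), the adaptor BCAR3 (-0.94) and the lysosomal enzyme FUCA1 (-0.94). DUSP10 had signals of 275 in vehicle and 821, 1196 and 1038 at 8, 24 and 72 h, so that like RGCC it stood furthest from vehicle at 24 h. WT1 had 2095 in vehicle and 4102, 4208 and 4353. After the group means were subtracted WT1 kept r = -0.59, and the others lay between -0.26 and -0.036. The ranking depended on its measure. With Spearman's correlation 0 of the 10 genes kept their place among the 5 highest or lowest.

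The U95 arrays, 1 for each group and without replicates, held probe sets for 9 of these 10 genes. EXT1 had U95 signals of 1209 in vehicle and 931, 827 and 799 at 8, 24 and 72 h, and RCAN2 had 354, 318, 218 and 269. NDUFS7 had 1684, 1685, 1349 and 1771 and so was not lower at each time. DUSP10 had 84.5, 256, 1044 and 543, with its highest value at 24 h as on U133A. BCAR3 had 212, 244, 229.5 and 136, and its U95 value at 72 h was below that of vehicle, against a rise of 0.62 on U133A.

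**Figure D5:**
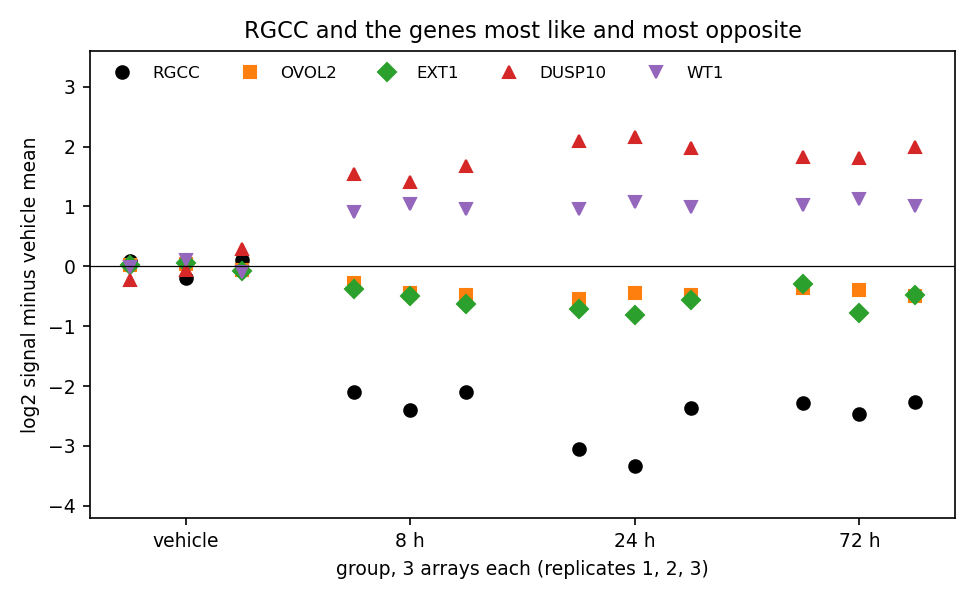
Log2 signal minus the vehicle mean on each of the 12 U133A arrays for RGCC, for the most similar genes (OVOL2 and EXT1) and for the most opposite genes (DUSP10 and WT1). RGCC and DUSP10 stand furthest from vehicle at 24 h, and OVOL2 and EXT1 move by less than RGCC.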

How the data were processed

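MAS5 signals from 12 U133A and 4 U95 Affymetrix arrays were used as deposited. They are an intensity per probe set that the authors scaled to a 2% trimmed mean of 500.2, as read from the values. The submitters' processing notes name MAS5 without a version. Probe sets were matched to genes with the platform annotation, and RefSeq (GRCh38.p14) gave symbols and gene order (19059 of 19071 probe sets with 1 gene matched).

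Values were transformed as log2(signal + 15.833), the 10th percentile of the U133A signals. Each gene was represented by its probe set of highest mean, and genes with a mean under the 40th percentile were left out, leaving 7178 of 11963. In R 4.3.3, limma 3.58.1 fitted group means over the 12 arrays (eBayes, trend on) with Benjamini-Hochberg adjustment, and was tested on simulated data. The number of arrays limits the precision.

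RGCC, the 5 pathway lists and the tests were chosen with earlier results of these data known. Named were RGCC, the next largest falls, up to 4 called members of each list with the lowest p, known partners of RGCC (1 was not analysed here), its neighbours, and the 5 genes most and least like it. IRF8, ADAMTS1, LMCD1, CCN2 and ID1 were named after their values were seen.

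The fit has no replicate block. After group means were subtracted, 12 of 18 pairs of arrays of equal number correlated above 0.1 (0.0519 to 0.263 over all pairs). All 3 numbers did so only between 8 and 24 h (0.108 to 0.157) and between 24 and 72 h (0.103 to 0.187). The numbers were read as pairing these arrays. Neither the main fit nor the permutation tests use this pairing. Alternatives covered the pseudocount, filter, normalization, probe set rule, block, array weights (statmod 1.5.0), trend and each array left out.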

Additional observations from a re-analysis of the deposited data

How the results depend on the processing

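RGCC kept the sign of all 6 differences in the 21 alternative settings of each. Against vehicle its values moved by less than the replicate SD except at 24 h with 4 times the pseudocount (-2.62). The 24 h minus 8 h difference passed with a replicate block (-0.72, adjusted p = 0.045) and without 24 h replicate 3, with a range of -0.99 to -0.51 over left-out arrays. The block changed no other call of RGCC, and among the partners it added PLK1 at 24 h (adjusted p = 0.0090).

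Genes called at 8 h were 55, and 84 with the block (38 to 60 over left-out arrays), of which 4 were lower (15 with the block, 3 to 6). At 24 h they were 292, and 453 with array weights (187 to 314), and at 72 h 491 (322 to 532). Genes called lower at 24 h were 116, with 72 under median centring, 188 with the block and 201 with array weights (64 to 129), and at 72 h 214 (117 to 233, the lowest of both without vehicle replicate 1). From 8 to 24 h the genes called in either direction were 46 (9 to 48 over left-out arrays, the lowest without 8 h replicate 3). They were 22 without a filter, 28 with median centring, 27 without trend and 90 with the block. From 24 to 72 h they were 11, with 4 without a filter, 6 with quantile normalization, 5 with median centring, 5 with the mean of probe sets, 4 without trend and 25 with the block (4 to 10). From 8 to 72 h they were 181, and 292 with the block (103 to 205). List members called were 2 at 8 h, and 1 without a filter or with the mean of probe sets (1 to 3 over left-out arrays). At 24 h they were 5, and 10 with the block or 9 with array weights (5 to 7). At 72 h they were 9 (6 to 10). The 5 lists held 21, 10, 18, 7 and 7 tested members. Of all genes 0.711%, 2.45% and 3.86% were called higher at 8, 24 and 72 h, and 0.0557%, 1.62% and 2.98% lower.

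Genes not called changed sign as follows: AKT1 at 72 h with median centring (0.0012; -0.050 to 0.015 over left-out arrays) and at 8 h (-0.072 to 0.065), SMAD3 at 8 h with the mean of probe sets (-0.11) and at 24 h (-0.24 to 0.0011), HIF1A at 24 h (-0.040 to 0.16), CDK1 at 8 h (-0.20 to 0.0087), and CCNB1 and PLK1 at 72 h (-0.11 to 0.031 and -0.28 to 0.032). Of the 10 genes most like or opposite to RGCC, 0 were kept with Spearman's correlation. RGCC on U95 was not run. Signals at 24 h are the lowest and their differences lean most on the pseudocount. Alternatives for CCN2, IRF8, ADAMTS1, LMCD1 and ID1 were chosen after seeing the data. LMCD1 kept its call in all 21.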

Other observations

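The spread of RGCC between replicates was larger than that of most genes. Its residual SD on the log2 scale was 0.28, against a median of 0.17, and 84.4% of the genes tested had a lower one. By group the SD was 0.17 in vehicle, 0.18 at 8 h, 0.49 at 24 h and 0.11 at 72 h (n = 3 each), so the 24 h group held most of it.

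Between 8 and 24 h no change was called for IRF8, ADAMTS1 or LMCD1, which fell at 8 h. From 8 to 24 h, IRF8 changed by 0.13, ADAMTS1 by 0.05 and LMCD1 by 0.05 on the log2 scale (adjusted p = 0.94, 0.97 and 0.97), where RGCC changed by -0.72. RGCC was not called either in this fit (adjusted p = 0.17), and over all genes 0.279% were called lower and 0.362% higher. IRF8, ADAMTS1 and LMCD1 were named for their fall at 8 h, so the 8 h arrays had entered their choice. The difference between RGCC and these genes was not tested.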
